A study of Mus musculus with 6 samples.

Results

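The nuclear-encoded subunits of the mitochondrial respiratory chain and ATP synthase were followed in mouse mesenchymal stem cells exposed to terahertz radiation. The set was taken by gene symbol from the platform annotation (subunit symbols that start with Nduf, Sdh, Uqcr, Cox4 to Cox8 or Atp5), leaving out Cox7a1 and Cox8b, the isoforms typical of muscle and brown fat. It holds 79 genes of the 18193 that have a probe set with 1 gene symbol: 33 of complex I, 4 of complex II, 8 of complex III, 17 of complex IV and 17 of complex V, the ATP synthase. Ndufa4 and its paralog Ndufa4l2 were counted with complex IV, of which Ndufa4 is a subunit. Where a gene has several single-gene probe sets, the brightest on average over the 6 arrays was used. Another 7 symbols of the rule, among them Ndufa11 and Ndufs6, occur only on probe sets shared by several symbols and were not described.

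RNA abundance was measured on 6 Affymetrix expression arrays, 3 of irradiated and 3 of control cultures, 1 of each from every one of 3 independent experiments. The cells were commercial mesenchymal stem cells of mouse, stromal cells able to form fat, bone and cartilage. All 6 cultures had received a fat-inducing mixture of rosiglitazone (1 µM), insulin (5 µg/ml), IBMX (100 µM) and dexamethasone (1 µM), renewed 48 h earlier. Irradiated cultures were exposed for 2 h to 35 fs broadband pulses centred near 10 THz at 1 kHz and 1 mW/cm2, the neighbouring control dish was not, both stood at 26 to 27 °C, and RNA was taken directly afterwards. The question was whether an irradiated culture differed from its own control. The source of the cells (animal, sex, number of donors) was not stated, and 1 commercial stock stands for the cell type.

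The respiratory chain passes electrons from NADH, through complex I, or from succinate, through complex II, by way of ubiquinone to complex III, cytochrome c and complex IV, which reduces oxygen. Complexes I, III and IV pump protons across the inner mitochondrial membrane, and ATP synthase uses the gradient to make ATP. Most subunits are encoded in the nucleus and a few core ones in mitochondrial DNA, and fat cells increase their mitochondria as they differentiate.

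Levels are log2 values of robust multi-array averaging (RMA), so a difference of 1 is a doubling, and levels of different probe sets cannot be set against each other. Normalization equalizes the arrays, so a difference is relative to the other transcripts. Fewer cells of a type and less RNA per cell cannot be told apart in such bulk samples. Precision is limited by having 3 arrays per group, and the standard error of an irradiated minus control difference had a median of 0.0764 over the 79 genes and 0.0882 over all 45037 probe sets. Fat cell markers were present (Fabp4 lay between 14.36 and 14.48), but so were macrophage transcripts (Lyz2 and Cd68). Of the 7 measured stromal markers 6 lay above the median probe set at 4.84, among them Pdgfra between 9.11 and 9.51. The exception was Thy1, which lay between 3.51 and 4.07. The 3 experiments also differed in array controls: the 3′ minus 5′ signal of Gapdh was 0.19 and 0.23 in the first experiment, against -0.05 to -0.01 in the others, and the mean of the spike-in probe sets was 11.63 and 11.25 in experiment 3 against 11.06 to 11.14 elsewhere.

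In irradiated cultures 66 of the 79 subunit transcripts were lower than in controls on average, 10 were higher and 3 were equal, but every one of these differences was small and none passed the test. The median difference was -0.06 on the log2 scale, with a range from -0.14 (Ndufs4 and Cox7b2) to 0.06 (Cox7a2l), while 48.1% of all genes were lower and their median was 0.00. With limma and Benjamini-Hochberg adjustment 0 of the 79 were called, as were 0% of the 45037 probe sets. At an unadjusted p under 0.05 limma found 0 of the 79, and the smallest unadjusted p of a member was 0.110. It found 4.97% of all probe sets, 753 of the 18193 genes, and 360 of the 11740 genes at or above the median probe set. Count and median describe the set and are not a test of it, because the members share their cultures and arrays.

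Control 1 carried the highest level of the 6 arrays in 55 of the 79 genes, 69.6%, against 17.7% of all genes. The difference was widest in experiment 1, with a median of -0.08 and 69 genes lower in the irradiated culture. In experiment 2 the median was -0.05 with 60 genes lower, and in experiment 3 it was -0.03 with 49 lower. Of all 18193 genes 8539, 8852 and 8814 were lower in the irradiated culture in experiments 1, 2 and 3. Without experiment 1, 59 of the 79 genes were lower in irradiated cultures and the median was -0.04. After each gene was centred on its own mean, the median of the 79 was 0.09 in control 1 and 0.02 in irradiated 1, 0.02 in control 2 and -0.03 in irradiated 2, and -0.02 in control 3 and -0.06 in irradiated 3. Each irradiated culture thus lay under its own control, by less than the distance between the controls of experiments 1 and 3.

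**Figure D1:**
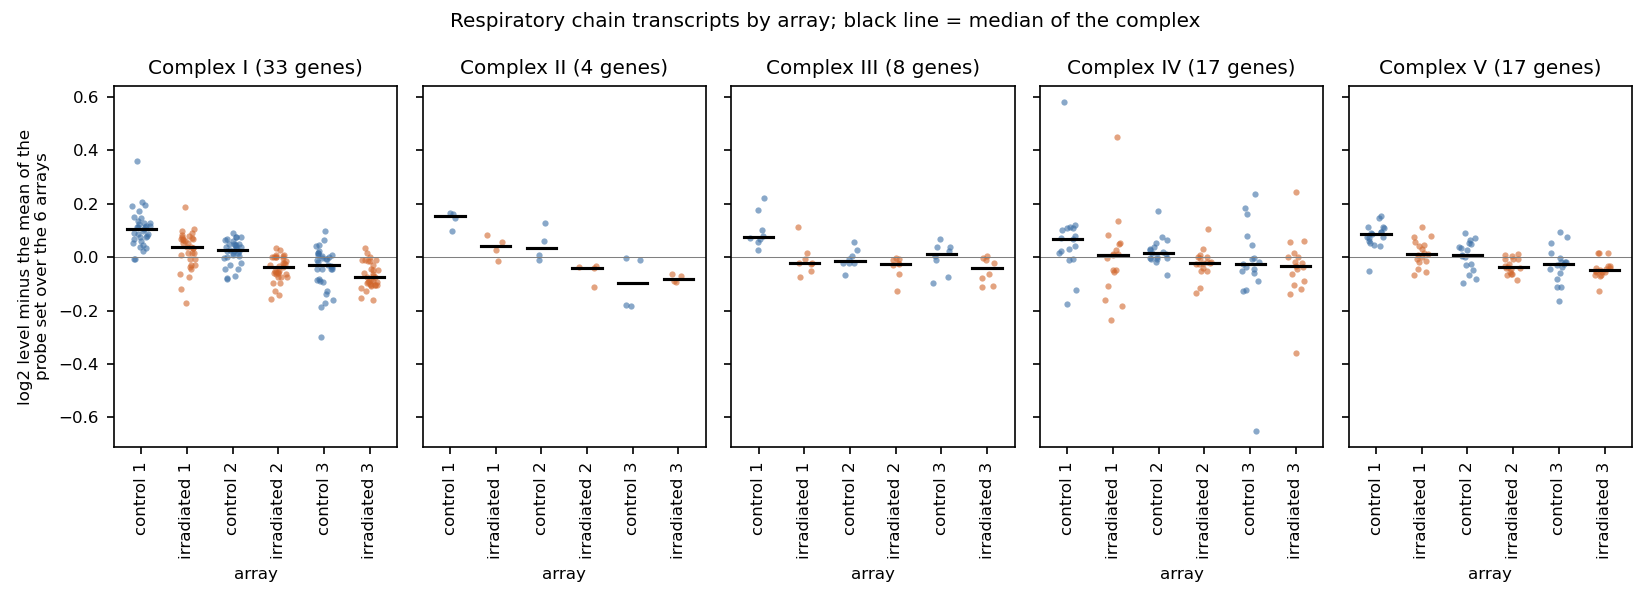
Each point is 1 gene on 1 array, drawn as its log2 level minus the mean of its probe set over the 6 arrays, by complex, with controls in blue, irradiated cultures in orange and a black line at the median of the complex. The median of control 1 is the highest of the 6 arrays in every complex.

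A total of 31 members, 39.2%, were lower in the irradiated culture in all 3 pairs, against 11.6% of all genes, and 0 were higher in all 3, against 12.4%. For 7 members all 3 controls lay above all 3 irradiated cultures (Ndufs3, Ndufs4, Ndufb2, Ndufv2, Uqcr11, Cox8a and Atp5g3), which is 8.86% against 2.99% of all genes. For 0 members did all controls lie below, against 3.31%. The 95% interval of every member lay inside a 1.5-fold difference in either direction, as did that of 17753 of all 18193 genes. Of the 237 single pair differences 176 were within 0.1, and the widest was -0.38, for Ndufb1 in experiment 1.

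**Figure D2:**
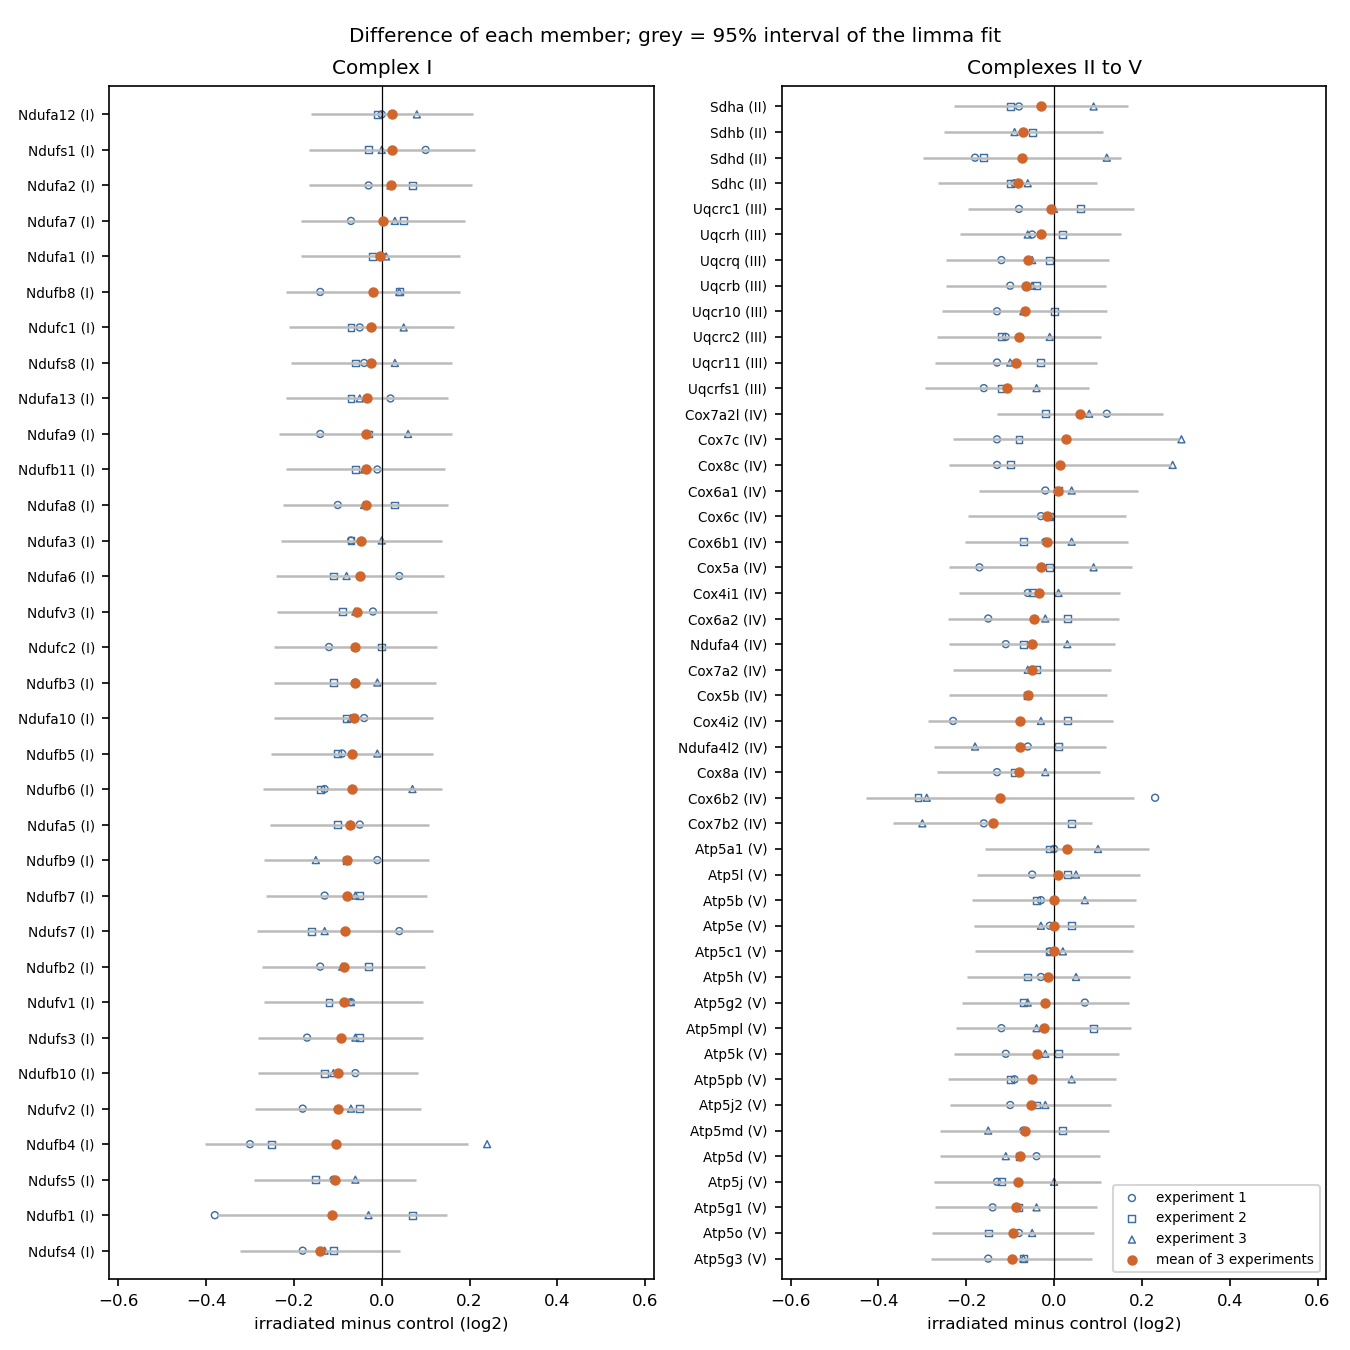
Irradiated minus control difference of each member (log2), by experiment (open blue symbols) and as the mean of 3 (orange), with the 95% interval of the limma fit in grey. Every interval crosses 0, and the means run from -0.14 to 0.06.

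Promoter windows, 250 bases before to 50 after the annotated start, were found by gene identifier in RefSeq (mouse GRCm38.p6) for 64 of the 79 members, and a gene with several starts was counted once. They were searched on both strands for short motifs of factors known to act on mitochondrial genes: GCATGCG, the NRF1 core, CCGGAAG for ETS factors such as GABP, AAGATGG for YY1 and AAGGTCA for ERR, with TATAAA, the TATA box, for comparison. The NRF1 core occurred in 15.6% of members and 4.01% of all 27025 promoters of that length, the ETS motif in 26.6% and 9.93%, the YY1 motif in 15.6% and 7.28%, and the ERR motif in 12.5% and 5.38%. At least 1 of these 4 was in 53.1% of members and 23.8% of all promoters. The TATA box was in 10.9% and 15.7%. Member windows also had a higher median GC content, 58.5% against 52.7%, which was not adjusted for. A match is a description of letters, not a site of binding.

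One window from each complex is shown, of a member with a motif whose values are given below, and that of Cox7c beside Cox8a. Sequences run 5′ to 3′ on the strand of the gene, and capitals mark the motif letters on either strand. They lie at chr13:114388045-114388344 (Ndufs4, minus strand, YY1), chr4:140961021-140961320 (Sdhb, plus, NRF1 and ETS), chr10:80406772-80407071 (Uqcr11, minus, NRF1 and ETS), chr19:7217567-7217866 (Cox8a, minus, ETS), chr13:86046746-86047045 (Cox7c, minus, YY1) and chr2:73911277-73911576 (Atp5g3, minus, ERR).
Ndufs4: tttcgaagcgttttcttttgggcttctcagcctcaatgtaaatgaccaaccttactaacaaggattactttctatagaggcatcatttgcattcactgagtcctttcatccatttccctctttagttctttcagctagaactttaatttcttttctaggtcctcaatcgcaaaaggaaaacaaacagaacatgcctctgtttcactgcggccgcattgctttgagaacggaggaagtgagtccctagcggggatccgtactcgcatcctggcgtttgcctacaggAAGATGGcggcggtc
Sdhb: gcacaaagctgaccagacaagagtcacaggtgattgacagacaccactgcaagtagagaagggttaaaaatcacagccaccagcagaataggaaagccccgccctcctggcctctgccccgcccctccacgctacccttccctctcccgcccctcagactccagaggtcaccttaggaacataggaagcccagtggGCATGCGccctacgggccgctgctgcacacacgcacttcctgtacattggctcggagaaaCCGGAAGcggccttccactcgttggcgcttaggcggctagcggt
Uqcr11: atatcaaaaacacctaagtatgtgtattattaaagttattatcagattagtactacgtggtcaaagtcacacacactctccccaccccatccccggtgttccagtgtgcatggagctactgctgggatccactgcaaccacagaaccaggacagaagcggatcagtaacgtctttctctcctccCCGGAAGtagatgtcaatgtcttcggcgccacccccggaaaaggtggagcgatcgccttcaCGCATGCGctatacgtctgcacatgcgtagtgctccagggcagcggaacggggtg
Cox8a: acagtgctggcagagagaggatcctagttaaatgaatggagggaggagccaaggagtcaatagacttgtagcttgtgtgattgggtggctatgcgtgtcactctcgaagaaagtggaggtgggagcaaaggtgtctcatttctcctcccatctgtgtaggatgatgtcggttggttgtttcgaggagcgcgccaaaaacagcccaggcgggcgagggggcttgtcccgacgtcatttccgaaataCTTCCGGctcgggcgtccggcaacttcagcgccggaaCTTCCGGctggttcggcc
Cox7c: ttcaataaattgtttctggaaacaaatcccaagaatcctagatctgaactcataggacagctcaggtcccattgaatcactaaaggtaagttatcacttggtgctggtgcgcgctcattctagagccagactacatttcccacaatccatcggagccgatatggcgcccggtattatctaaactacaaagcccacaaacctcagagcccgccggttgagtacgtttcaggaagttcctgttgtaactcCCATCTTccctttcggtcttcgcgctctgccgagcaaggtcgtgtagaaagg
Atp5g3: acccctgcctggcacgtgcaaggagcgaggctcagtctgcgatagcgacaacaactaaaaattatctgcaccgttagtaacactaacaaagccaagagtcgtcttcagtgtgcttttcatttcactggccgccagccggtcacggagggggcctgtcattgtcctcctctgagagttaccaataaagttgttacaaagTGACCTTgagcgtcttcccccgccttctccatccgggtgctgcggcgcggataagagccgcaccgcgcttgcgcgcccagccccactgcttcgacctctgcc
By complex, the ETS motif was in 4 of 30 windows of complex I, 2 of 3 of complex II, 2 of 5 of complex III, 3 of 11 of complex IV and 6 of 15 of complex V.

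Complex I, the NADH dehydrogenase that feeds electrons into the chain, had 29 of 33 transcripts lower after irradiation, at a median of -0.06 and at -0.07, -0.07 and -0.04 in the single pairs. By module, 5 of 9 in the NADH-oxidizing N module were lower (median -0.05) and 4 of 4 in the ubiquinone-reducing Q module (-0.08). Complex I members listed in neither module were all counted as membrane arm, and 20 of 20 of them were lower (-0.06). The members with a value above 0 were Ndufs1, Ndufa2, Ndufa7 and Ndufa12, all of the N module, between 0.00 and 0.02. This rests in part on the probe set chosen: the other 4 of Ndufa7 and the other 3 of Ndufa12 were all lower. Whether the modules differ was not tested.

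Ndufs4, an accessory subunit of the N module needed for a stable enzyme, had the smallest p of all members on its brightest probe set. Its level was 9.93, 9.92 and 9.97 in controls 1 to 3 and 9.75, 9.81 and 9.84 in the irradiated cultures. The groups did not overlap and the 3 controls lay within 0.05 of one another. The means were 9.94 ± 0.03 and 9.80 ± 0.05 (SD, n = 3 each), a difference of -0.14 ± 0.08 (SE) with a limma adjusted p of 0.929. Its other probe sets, all dimmer, differed by -0.01, 0.22 and -0.05, and the average of all 4 by 0.01, so the direction was not kept. Ndufs5, a small subunit of the membrane arm, was 6.73, 6.69 and 6.58 in controls and 6.62, 6.54 and 6.52 in irradiated cultures, lower in each pair but with overlapping groups. Its symbol is also on probe sets shared with a pseudogene, so its value is uncertain.

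Ndufv1, the core subunit that binds NADH and FMN, was 10.43, 10.33 and 10.29 in controls and 10.36, 10.21 and 10.22 in irradiated cultures. Its difference of -0.09 had the same sign in each pair, and the groups overlapped. Ndufs1, the largest iron-sulfur subunit, was 9.98, 9.93 and 9.73 in controls and 10.08, 9.90 and 9.73 in irradiated cultures. Here both arrays of experiment 3 lay below the other 4, and the irradiation difference was 0.02 ± 0.08 (SE). Ndufb4, a membrane arm subunit, had the widest spread between experiments in the complex, but its probe set lay between 2.81 and 3.47, in the dim range, and paralogs share its symbol on other probe sets.

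Complex II, succinate dehydrogenase, links the citric acid cycle to the chain and is wholly nuclear-encoded. All 4 genes were lower after irradiation, with a median of -0.07, and none was called. Pair medians were -0.09 and -0.10 in experiments 1 and 2 but 0.02 in experiment 3. Sdha, the flavoprotein that oxidizes succinate, was 11.14, 11.04 and 10.80 in controls and 11.06, 10.94 and 10.89 in irradiated cultures. Sdhb, the iron-sulfur subunit, was 11.15, 11.06 and 11.05 in controls and 11.08, 11.01 and 10.96 in irradiated cultures. Sdhb was lower in each pair while Sdha was higher in the third, and in both the groups overlapped. The lower mean of Sdha rests on the probe set chosen. Another bright probe set of Sdha differed by 0.04, and averaging all of its probe sets turned the sign.

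The other subunits anchor the enzyme in the membrane. Sdhc was 10.33, 10.17 and 10.17 in controls and 10.24, 10.07 and 10.11 in irradiated cultures, lower in each pair. Sdhd was 10.91, 10.87 and 10.56 in controls and 10.73, 10.71 and 10.68 in irradiated cultures. The 3 irradiated arrays of Sdhd lay within 0.05 of one another (SD 0.03) and the controls spread more widely (SD 0.19), control 3 being the lowest array of all 6.

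Complex III, the cytochrome bc1 complex, moves electrons from ubiquinol to cytochrome c. All 8 genes were lower after irradiation on average, with differences from -0.11 to -0.01, and none was called. The median was -0.07, and the pair medians were -0.12, -0.02 and -0.05. Uqcrfs1, the Rieske iron-sulfur protein, was 10.87, 10.75 and 10.62 in controls and 10.71, 10.63 and 10.58 in irradiated cultures, a difference of -0.11 ± 0.08 (SE, limma adjusted p = 0.933). Each irradiated culture lay below its control, but the experiments differed enough for the groups to overlap.

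Uqcr11, a small subunit of complex III, was 11.73, 11.63 and 11.65 in controls and 11.60, 11.60 and 11.55 in irradiated cultures, with no overlap between the arms. The core protein Uqcrc2 was 11.38, 11.15 and 11.06 in controls and 11.27, 11.03 and 11.05 in irradiated cultures, so that experiment 1 stood above the others in both arms. Its partner Uqcrc1 was 11.37, 11.23 and 11.30 in controls and 11.29, 11.29 and 11.30 in irradiated cultures, which put the arms 0.01 apart.

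Complex IV, cytochrome c oxidase, has mitochondrial catalytic subunits surrounded by nuclear ones, several of which come in tissue isoforms. Of its 17 transcripts 13 were lower after irradiation, at a median of -0.05 and at -0.06, -0.04 and -0.01 in the single pairs. Cox7a2l, which joins complexes III and IV into supercomplexes, had the highest value of all members, 0.06 ± 0.08 (SE). Its levels were 11.47, 11.47 and 11.33 in controls and 11.59, 11.45 and 11.41 in irradiated cultures, with overlap. The complex IV median rests in part on experiment 1, without which it was -0.015.

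Cox8a, the general isoform of the smallest subunit, was 11.85, 11.84 and 11.76 in controls and 11.72, 11.75 and 11.74 in irradiated cultures. The arms did not overlap, by a margin of 0.01. Cox5b, like Cox5a a nuclear subunit present in all tissues, differed by -0.06 in every one of the 3 pairs, with controls at 13.09, 13.02 and 12.92 and irradiated cultures at 13.03, 12.96 and 12.86. Cox5a was 13.10, 12.99 and 12.89 in controls and 12.93, 12.98 and 12.98 in irradiated cultures, lower in the first pair and higher in the third.

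Several subunits have a general form and a tissue-restricted one. The general forms Cox4i1, Cox6a1, Cox6b1 and Cox7a2 differed between arms by -0.03, 0.01, -0.02 and -0.05, and Ndufa4 by -0.05. The hypoxia-responsive Cox4i2 lay between 4.67 and 5.01 and the muscle form Cox6a2 between 5.78 and 6.02, and their differences of -0.08 and -0.05 did not pass the test. The testis forms Cox7b2 (between 2.69 and 2.99) and Cox8c (between 6.30 and 6.66) differed by -0.14 and 0.01, each with both signs among its pairs. Cox6b2, another testis form, was 8.45, 8.80 and 8.81 in controls and 8.68, 8.49 and 8.52 in irradiated cultures, higher in the first pair and lower in the others.

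Ndufa4l2, a paralog of Ndufa4 induced by low oxygen, lay between 5.82 and 6.24, lowest in the arrays of experiment 1 and highest in control 3. It was among the 3 members, with Cox4i2 and Cox6a2, whose experiment 3 arrays both lay above both experiment 1 arrays, against 21.3% of all genes. The difference between those experiments was 0.30 ± 0.10 (SE) with a limma adjusted p of 0.180.

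Complex V had 12 of 17 transcripts lower after irradiation, 3 equal and 2 higher, at a median of -0.04 and at -0.07, -0.04 and -0.02 in the single pairs. In the catalytic head, alpha and beta differed by 0.03 and 0.00. Atp5a1, the alpha subunit, was 12.45, 12.34 and 12.17 in controls and 12.45, 12.33 and 12.27 in irradiated cultures. Atp5b, the catalytic beta subunit, was 12.76, 12.75 and 12.59 in controls and 12.73, 12.71 and 12.66 in irradiated cultures, with equal means of 12.70. In both genes control 3 was the lowest of the 6 arrays.

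The rotor ring of subunit c is encoded by 3 genes whose mature proteins are the same. Atp5g3 was 13.06, 13.00 and 12.98 in controls and 12.91, 12.93 and 12.91 in irradiated cultures. The arms did not overlap, and the difference was -0.10 ± 0.08 (SE, limma adjusted p = 0.934). Atp5g1 was 11.39, 11.39 and 11.30 in controls and 11.25, 11.31 and 11.26 in irradiated cultures, lower in each pair. Its other, dim probe set was higher in each pair, by 0.32, 0.38 and 0.06, and the average of both differed by 0.08, the opposite direction. Atp5g2 differed by -0.02 with 1 pair of the other sign. Atp5o, the stalk protein that holds the head in place, differed by -0.08, -0.15 and -0.05 in the 3 pairs, with overlapping arms. Atp5pb, the b subunit of the same stalk, differed by -0.05 and was higher in irradiated culture 3.

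**Figure D3:**
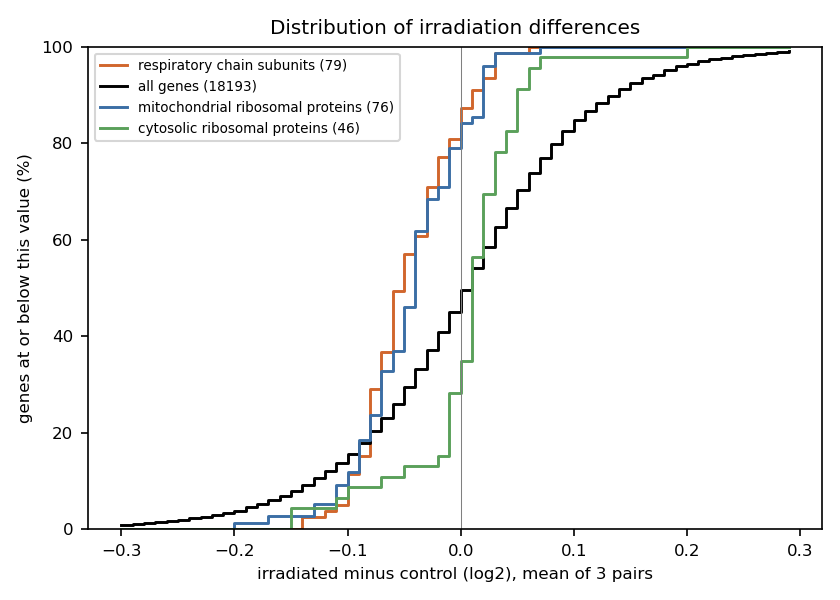
Cumulative share of genes (%) by irradiated minus control difference (log2, mean of 3 pairs) for the 79 subunits, 76 mitochondrial ribosomal proteins, 46 cytosolic ribosomal proteins and all 18193 genes. The curves of the subunits and the mitochondrial ribosomal proteins lie to the left of 0 over most of their range, that of the cytosolic ribosomal proteins mostly to its right, and all 3 span less than that of all genes.

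Mitochondrial ribosomal proteins, which translate the mitochondrial part of the chain, gave values much like those of the subunits: 63 of 76 were lower after irradiation and the median was -0.05. Their pair medians were -0.07, -0.09 and 0.01, so experiment 3 did not show the lower level. Of the 46 cytosolic ribosomal protein genes 15 were lower and 30 higher, with a median of 0.01. Whether these groups differ was not tested, and all share the same 6 arrays.

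The rest of the pathway gave 0 calls between the arms in every list by limma, and at an unadjusted p under 0.05 it found only Cycs, Cyct, Ppargc1b and Pprc1. Over all the listed pathway genes that share was close to the 4.97% of all probe sets. Lower after irradiation were 12 of 14 complex I assembly factors, 4 of 4 of complex II, 5 of 7 genes of complex III (Cyc1 with assembly factors), 16 of 18 complex IV assembly factors and 4 of 4 genes for assembly and inhibition of ATP synthase. Of the citric acid cycle enzymes 12 of 12 were lower, with a median of -0.06. The electron carriers, meaning cytochrome c, ubiquinone synthesis and the electron transfer flavoprotein, were lower in 14 of 14, with the widest median, -0.11. Cycs, the somatic cytochrome c, was 13.32, 13.29 and 13.20 in controls and 13.02, 13.14 and 13.04 in irradiated cultures, without overlap, and its unadjusted limma p was 0.041 (adjusted p = 0.929). The testis form Cyct, whose probe set was dim, had an unadjusted limma p of 0.047 (adjusted p = 0.929).

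Regulators of mitochondrial genes did not go one way: 10 of 14 were lower and 4 higher. Ppargc1b, a coactivator of mitochondrial genes, differed by -0.26 (limma, unadjusted p = 0.035, adjusted p = 0.929). The related Pprc1 differed by 0.23 (limma, unadjusted p = 0.040, adjusted p = 0.929). None of the 13 mitochondrially encoded subunits on the list was measured here. Fat cell markers were lower in 5 of 5 measured (median -0.13), macrophage and leukocyte markers higher in 8 of 8 (median 0.08), stromal markers higher in 5 of 7 and endothelial markers, 3 of which lay below the median probe set, higher in 4 of 4. Averaged over its genes, the fat cell list lay between 12.68 and 12.84 in controls and between 12.58 and 12.65 in irradiated cultures. The macrophage and leukocyte list lay between 11.03 and 11.21 in controls and between 11.23 and 11.29 in irradiated cultures. In both list averages the arms did not overlap, and no gene of either passed the adjusted threshold. Cidec, a fat droplet protein, and Cd14, a monocyte receptor, had limma unadjusted p of 0.0014 and 0.020, with an adjusted p of 0.929 each. Their differences of -0.48 and 0.27 were the widest of their lists. With Cidec left out of the fat cell list, or Cd14 out of the other, the arms of that list overlapped. The part of cell composition in the lower subunit values was not tested.

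Differences between experiments were wider than those between arms. Of the sum of squares over the 79 genes, experiment (2 degrees of freedom) took 70.7%, irradiation (1) 12.4% and the residual (2) 16.9%. Cox7c weighs on these shares, which without it were 61.7%, 17.0% and 21.3%. Over all genes they were 69.4%, 10.6% and 20.1%, and over the genes at or above the median probe set, where 77 of the 79 members lie, 78.0%, 7.89% and 14.1%. Between experiments 2 and 1, limma called 0 members (0.52% of all probe sets), with 2 at an unadjusted p under 0.05, Cox7c and Uqcrc2, against 9.89% of all probe sets. Between experiments 3 and 2 it called 0 (0.0355% of all probe sets), with Cox7c alone at an unadjusted p under 0.05, against 9.89% of all probe sets. Between experiments 3 and 1 it called 1, Cox7c, which was lower (3.05% of all probe sets were called, 1.18% as lower). At an unadjusted p under 0.05 there were 9 members, against 19.1% of all probe sets. Each experiment is 1 pair of dishes, and culture, RNA and array differences between experiments cannot be told apart.

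Most subunits had lower values in experiments 2 and 3. Relative to experiment 1, 67 of 79 were lower in experiment 2, against 54.3% of all genes, and relative to experiment 2, 54 were lower in experiment 3, against 52.3%. Between experiments 3 and 1, 63 of 79 were lower and 15 higher, with a median of -0.10, while 54% of all genes were lower, with a median of -0.02. Both arrays of experiment 3 lay below both of experiment 1 for 47 members, 59.5%, against 29.7% of all genes. Genes at or above the median probe set, where most members lie, shared part of this. Of these 11740 genes 7147 were lower in experiment 3, at a median of -0.055, and 4546 had both arrays below. By complex the medians were -0.13 for I, -0.17 for II, -0.05 for III, -0.04 for IV and -0.10 for V. Beside Cox7c the widest negative values were -0.39 for Ndufb4, which is dim, and -0.30 for Ndufs1. With a prior that follows intensity limma called 10 members in place of 1 (Atp5a1, Cox5b, Cox6b1, Cox7c, Ndufa9, Ndufb6, Ndufs1, Ndufs8, Sdha and Uqcrc2), all lower in experiment 3, and 7.85% of all probe sets.

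**Figure D4:**
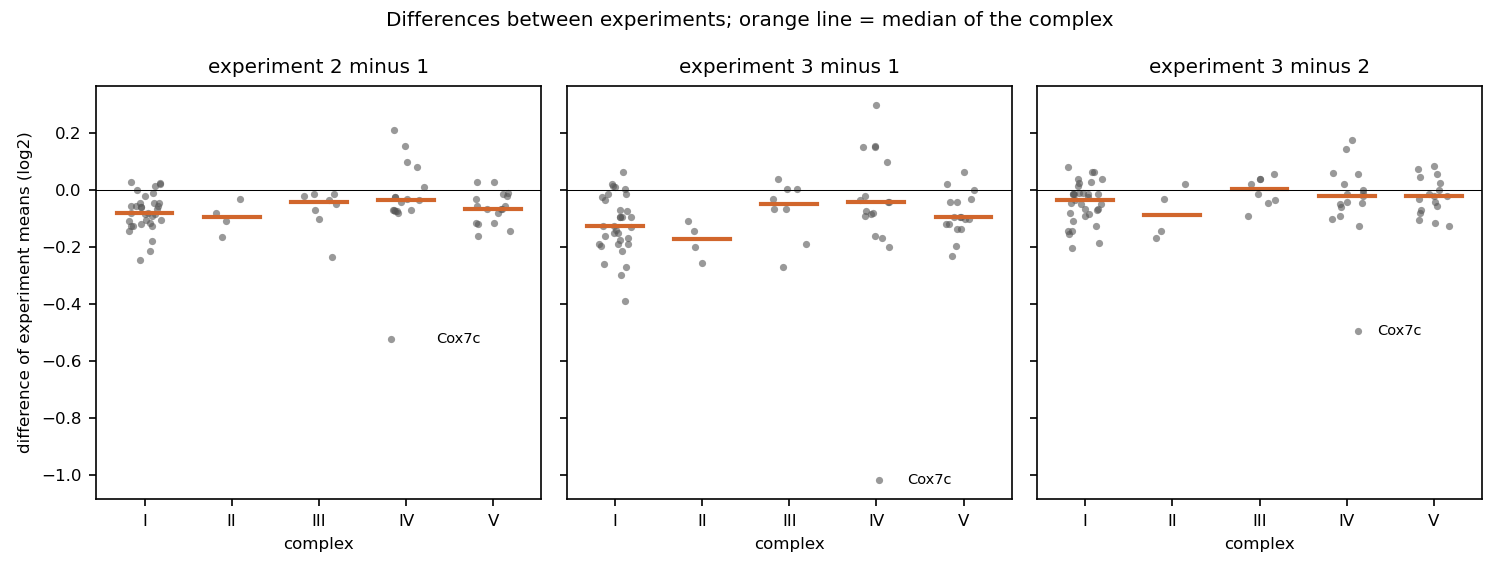
Difference between the means of 2 experiments (log2) for each member, by complex, with an orange line at the median of the complex. Cox7c stands apart in all 3 panels, at -1.02 between experiments 3 and 1.

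Cox7c, a small nuclear subunit of complex IV, was 5.56 and 5.43 in experiment 1 (control, irradiated), 5.01 and 4.93 in experiment 2, and 4.33 and 4.62 in experiment 3. The experiments did not overlap, whereas the arms did. Experiment 3 was lower than experiment 1 by 1.02 ± 0.13 (SE), with a limma adjusted p of 0.0162. The call was lost without experiment 2, at -1.02 (limma adjusted p = 0.211), and when any 1 array was left out, at -1.22 to -0.82 (limma adjusted p between 0.115 and 0.441). In each of these smaller fits limma called 0 of all probe sets, so they do not test how stable this call is. Both Cox7c probe sets with a single symbol were dim, the other one lying between 3.20 and 4.15. Over the 6 arrays the chosen probe set spread over 1.23, the widest of the members, whose median was 0.20.

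Additional probe sets of other members were called as well. Of the 162 single-gene probe sets of the 79 members, limma called 3 between experiments 3 and 1, or 1.85%, against 3.05% of all probe sets. All 3 were lower in experiment 3, against 1.18% of all probe sets called as lower, and had a mean level under 8, a bound chosen after the values were seen (38 of the 162 lay under it). An additional probe set of Atp5c1, the gamma subunit, was 6.42 and 6.13 in experiment 1, 5.70 and 5.70 in experiment 2, and 4.94 and 4.92 in experiment 3, and differed by -1.35 ± 0.11 (SE, limma adjusted p = 0.0045). The brightest probe set of Atp5c1 differed by only -0.14. A second probe set of Atp5g2 differed by -1.11 ± 0.20 (SE, limma adjusted p = 0.045), against 0.07 for its brightest. Within 1 gene, then, dim and bright probe sets gave different values, and the files do not say which transcript forms they read.

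The additional probe sets bear on the irradiation values too. Among the 83 that were not chosen, 25, in 19 genes, had a sign opposite to that of the chosen one. Limma gave 3 of the 83 an unadjusted p under 0.05 between arms, all at a mean level below 8. Of the 54 at or above a level of 8, 49 were lower after irradiation, and of the 29 below it 15 were. The 6 probe sets of Cox5b show this: the 4 bright ones differed by -0.06, -0.06, -0.06 and -0.09 and the 2 dim ones by -0.01 and 0.09.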

How the data were processed

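The authors deposited log2 levels, 1 for each probe set on each array. RMA, affy and limma are named, without versions or roles, per the submitters' processing notes. No header states the log base, which was taken as 2, the scale of RMA. Total RNA (200 ng) was labelled by priming with oligo dT, per the labels' protocols. Depth does not apply to arrays. Of 45101 probe sets 64 Affymetrix controls were left out, and 34945 carry 1 gene symbol in the platform annotation, which can be old.

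Differences between arms and between experiments were fitted in R 4.3.3 with limma 3.58.1 (lmFit and eBayes, two-sided, all 6 arrays, experiment as a fixed block), Benjamini-Hochberg adjusted over 45037 probe sets at 0.05. The script was tested on simulated data. With 2 residual degrees of freedom, arms within an experiment have no replicate. The pairing comes from the series design, in which each irradiated culture had its own adjacent control. Deviations of paired arrays correlated with r = 0.629, 0.142 and 0.505 in experiments 1 to 3, across probe sets. For irradiated 2 the value against control 3, r = 0.153, was above that of its pair.

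Members, lists and alternatives were chosen with earlier results of these data known. Values are given for 36 named members: in each complex the 2 with the smallest irradiation p and the 2 with the widest range between experiments, isoform sets and core subunits. Most are given by array, dim ones as ranges, and some bright ones only as differences. Others were named where a count turned on them, after their values were seen. Alternatives were quantile normalization, median centring, a level filter, trend or robust priors, array weights, averaging the probe sets of each gene, no or a random block, no irradiation term, and leaving out experiments or arrays. Figures were drawn with matplotlib 3.10.9.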

Additional observations from a re-analysis of the deposited data

How the results depend on the processing

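The count of 0 members called between irradiated and control cultures was the same under every alternative run, including no replicate block and a random block for the pairing. In each of these fits limma called 0 of all probe sets between the arms, so the constant count is not a result about the members. The smallest adjusted p of any member in those fits lay between 0.895 and 0.998, and an intensity trend put 2 members, Atp5g3 and Ndufs4, at an unadjusted p of 0.027 each. Members lower in irradiated cultures numbered 59 to 74 when 1 experiment was left out, 64 after quantile normalization and 73 after median centring, which itself moves the median gene by -0.02. The complex I median was -0.08 under median centring, and the complex IV median ranged from -0.06 to -0.015 when each experiment was left out, the latter without experiment 1. Members called between experiments 3 and 1 numbered 10 with an intensity trend, where limma called 3534 of all probe sets. They numbered 2 (Atp5c1 and Cox7c) when the probe sets of each gene were averaged. There limma called 747 genes and other probe sets in all. The number was 0 without experiment 2 or without any single array. In those smaller fits limma called 0 of all probe sets, and the Cox7c difference lay between -1.22 and -0.82. Of 430 values of the 36 named members under 12 other settings, 416 stayed within 1 SD of the pair differences and 0 passed adjusted p 0.05. Trend and robust priors, the level filter and no or a random block cannot change a difference in this balanced design. Their values stayed by construction, so the count of 416 is not a measure of stability. Averaging the probe sets of each gene turned the sign of 6 of the 36 (Atp5a1, Atp5g1, Cox6a1, Cox7c, Ndufs4 and Sdha), and leaving out experiment 1, 2 or 3 turned that of 4, 3 and 4. Array weights and median centring each turned 2, and quantile normalization 1. Probe intensities were not used here, so background correction could not be repeated.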
